A study of Homo sapiens with 23 samples.

Results

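Thalamus organoids that carried a c-JUN knockout and a re-expressed c-JUN (OE) were compared with wild-type (WT) thalamus organoids over both sampling days together. The comparison takes 8 of the 23 samples of the series, chosen by their titles: 4 RNA-seq libraries titled as c-JUN knockout plus c-JUN and 4 titled as wild type, with 2 of each at day 25 and 2 of each at day 30 of differentiation. All organoids were grown from H1, a human embryonic stem cell line, with a guided protocol that patterns neural tissue toward the thalamus. The OE line was derived from H1 cells whose c-JUN gene had been disrupted by CRISPR-Cas9, and c-JUN was expressed from a plasmid under a tet-on system, which is switched on by doxycycline in the medium. The WT libraries carry neither change. Which knockout clone gave the OE line, and whether the WT organoids also received doxycycline, are not given in the sources used here, so effects of the clone, the plasmid and the drug cannot be told apart from those of c-JUN. Per the labels, each RNA-seq library was made from 3 pooled organoids, and the methods give 3 to 4. The methods also say in general that experiments used at least 3 batches, but each group has 2 libraries a day and no source ties a library to a batch. Where libraries of a group did not come from separate cultures, the p-values measure only the spread between these libraries, which may be technical. In bulk RNA, fewer cells of a type and less RNA per cell cannot be told apart.

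c-JUN is a basic leucine zipper transcription factor that joins FOS, ATF or other JUN proteins in AP-1, a dimer that binds a short palindromic DNA element. Jun kinases phosphorylate it after growth factor signals and stress, and in neurons it is known for its induction after axon injury. In many tissues AP-1 acts downstream of fibroblast growth factors (FGFs) and regulates genes of the extracellular matrix.

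The deposited values are normalized expression scores for 9497 genes, which share a median of 106 and a range of 11 to 9910 in every library. Because they are not counts, the depth of a library is unknown. Replicates ranked genes alike, with Spearman correlations across genes of 0.936 and 0.959 for WT and 0.958 and 0.947 for OE at days 25 and 30. The 4 libraries labelled KO, which came from the knockout without re-expression, were looser (0.821 and 0.769) and are given only as values beside the comparison. Their difference from WT uses the same WT libraries as that of OE.

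JUN itself (ENSG00000177606, chr1:58776845-58784048, build GRCh38) was higher in OE in every library. JUN had values of 139 and 153 at day 25 and 128 and 162 at day 30 in the WT libraries, against 224 and 212 at day 25 and 362 and 202 at day 30 in the OE libraries. No OE value reached down to a WT value, and 1 OE library at day 30 stood well above the other OE libraries. The means were 250 ± 75.2 in OE and 146 ± 15 in WT (SD, n = 4 each), and the two-sided exact permutation test gave p = 0.0286, the smallest p that 4 against 4 libraries allow. Across all genes JUN missed the threshold, with a log2 difference of 0.74 ± 0.18 (SE) and an adjusted p of 0.0572 (limma with Benjamini-Hochberg adjustment). The libraries labelled KO were not low in JUN RNA. Their values were 353 and 196 at day 25 and 222 and 248 at day 30, with a mean of 255 ± 68.9 (SD, n = 4), so JUN goes against the label on this measure and did not set OE apart from the libraries labelled KO. A gene-level value does not separate an edited from an intact transcript. The study reports no c-JUN protein in the knockout lines by western blot, and no c-JUN mRNA by RT-qPCR in their neural progenitors and cerebral organoids. It also reports overexpressed c-JUN protein after induction by western blot. Those measurements were not of the thalamus organoids sequenced here.

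No gene of the AP-1 family was called. Of the 7 measured genes in the AP-1 list of 19, JUN included, 0 passed the test, with a median log2 difference of 0.22 beside a median of 0.00126 over all genes. ATF3, a stress-induced partner, had a difference of -0.52 ± 0.28 (SE, adjusted p = 0.346). JUND, a paralog of JUN, had a difference of 0.22 ± 0.12 (SE, adjusted p = 0.345). The Jun kinase pathway list likewise had 0 of 27 measured genes past the test, with a median of -0.06. Over all genes 0.842% were called, so a count of 0 in lists of this size lies near the background.

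**Figure D1:**
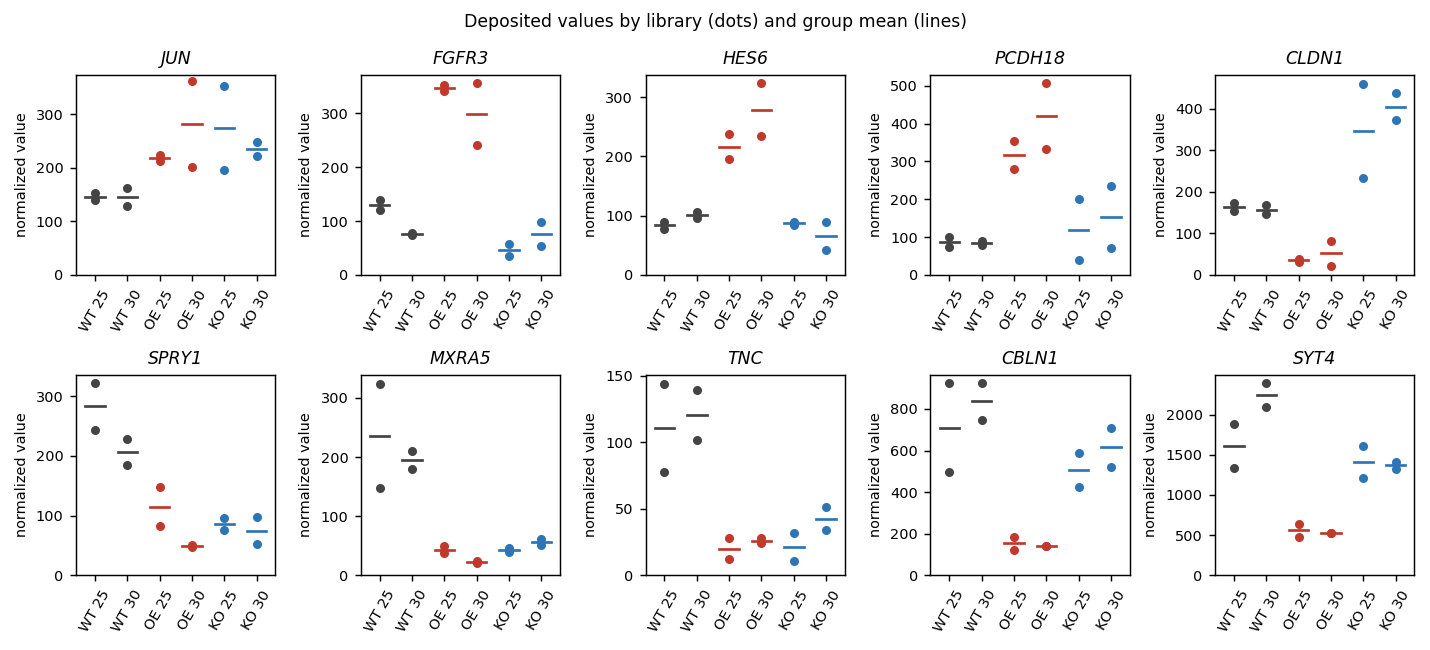
Normalized value (linear axis from 0) of 10 genes in each library (dots) with the mean of each group of 2 (lines), for WT, OE and libraries labelled KO at days 25 and 30. FGFR3, HES6 and PCDH18 sit higher in all 4 OE libraries than in all 4 WT libraries, while CLDN1, SPRY1, MXRA5, TNC, CBLN1 and SYT4 sit lower, and JUN in the libraries labelled KO lies at 196 to 353.

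Over both days, 80 of 9497 genes (0.842%) passed an adjusted p under 0.05 with a change of at least 2-fold in limma with Benjamini-Hochberg adjustment, and such genes are referred to as called. In OE 35 of them (0.369%) were higher and 45 (0.474%) were lower. At any fold, 274 genes (2.89%) passed, 121 higher (1.27%) and 153 lower (1.61%), and 1813 genes (19.1%) had an unadjusted p under 0.05. In 73 of the 80 called genes the 4 OE values did not overlap the 4 WT values, which over all genes held for 804 (8.47%). The calls came from the same libraries and favour such genes, so this share only describes them. The number called rested on single libraries. Leaving out WT replicate 1 gave 41 (day 25) and 17 (day 30), and leaving out WT replicate 2 of day 30 gave 34. It was 38 when OE replicate 2 of day 25 was omitted, and 132 and 22 when OE replicates 1 and 2 of day 30 were. When the 4 libraries labelled KO shared the estimate of the spread, it was 15. A smaller group of 16 genes was called whichever library was left out, and 13 of these were also called with all 12 libraries. The 13 are FGFR3, HES6 and PIK3C2B, which were higher in OE, and MXRA5, CBLN1, TNC, SYT4, SPRY1, PARM1, IL17RD, CDH18, PATJ and CHST2, which were lower.

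**Figure D2:**
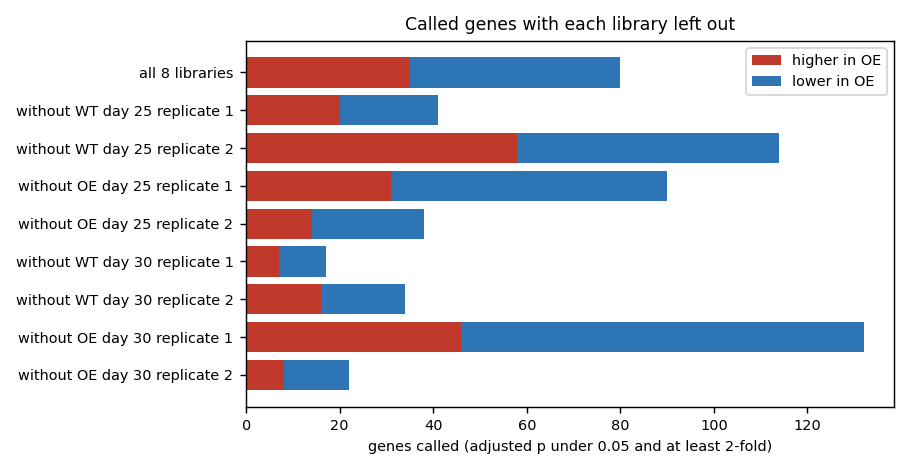
Number of genes called over both days (x axis, from 0) with all 8 libraries and with each library left out in turn, split into genes higher (red) and lower (blue) in OE. The count lies between 17 and 132, against 80 with all 8 libraries.

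**Figure D3:**
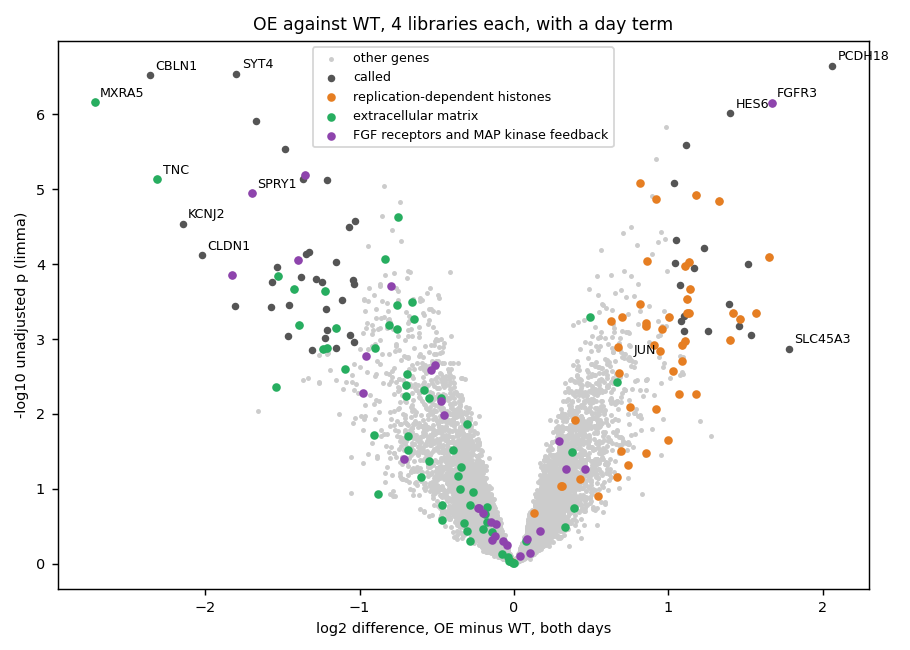
Log2 difference of OE minus WT over both days (x axis) against −log10 of the unadjusted limma p (y axis) for 9497 genes, with called genes in dark grey and 3 gene lists in colour. Histone genes lie on the side higher in OE, most extracellular matrix genes on the side lower in OE, and FGFR3 lies apart from the other genes of its list.

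The receptor FGFR3 rose in OE while feedback inhibitors of the same pathway fell. FGFR3 encodes a receptor tyrosine kinase for FGFs, found in neural progenitors and astroglia. It had values of 140 and 121 at day 25 and 78 and 74 at day 30 in the WT libraries, against 341 and 352 at day 25 and 356 and 241 at day 30 in the OE libraries. The groups were far apart on both days, with a log2 difference of 1.67 ± 0.16 (SE, adjusted p = 0.00132), or 3.18-fold. SPRY1 and SPRY4 encode Sprouty proteins, which are induced by FGF signalling and restrain it. SPRY1 had values of 244 and 322 at day 25 and 184 and 229 at day 30 in the WT libraries, against 148 and 82 at day 25 and 50 and 47 at day 30 in the OE libraries. The lowest WT value lay above the highest OE value, and the difference was -1.70 ± 0.22 (SE, adjusted p = 0.00533). SPRY4, at 43 to 74 in WT and 16 to 26 in OE, differed by -1.40 ± 0.23 (SE, adjusted p = 0.017). IL17RD (also called SEF), another inhibitor at the level of the receptor, had values of 1258 and 1157 at day 25 and 708 and 788 at day 30 in WT and 700 and 400 at day 25 and 280 and 241 at day 30 in OE, a difference of -1.35 ± 0.16 (SE, adjusted p = 0.0044), with the lowest WT value 8 above the highest OE value. FGF12, an intracellular FGF homologue that acts on sodium channels and not as a secreted ligand, fell by 1.83 on the log2 scale (adjusted p = 0.0201).

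Of the 29 measured genes in the list of 41 FGF receptors and MAP kinase feedback genes, 1 was called higher (FGFR3) and 4 lower, and SPRY2 also fell at under 2-fold (-0.79 ± 0.14 SE, adjusted p = 0.023). The list's median was -0.20, and its share called was 17.2% beside 0.842% of all genes. The MAP kinase phosphatase DUSP6 (-0.98 ± 0.28 SE, adjusted p = 0.0893) and its relative DUSP4 (-0.96 ± 0.23 SE, adjusted p = 0.0541) missed the threshold, as did FGFR1 (-0.45 ± 0.15 SE, adjusted p = 0.122) and FGFR2 (0.34 ± 0.16 SE, adjusted p = 0.272). Of the 5 called genes, 3 were left without OE day 30 replicate 2 and without WT day 30 replicate 1, and 7 genes were called without OE day 25 replicate 1. SPRY1 was also low in the libraries labelled KO, at 76 and 96 at day 25 and 98 and 52 at day 30, whereas FGFR3 there had 58 and 35 at day 25 and 98 and 54 at day 30. IL17RD had 579 and 710 at day 25 and 354 and 345 at day 30 there. DUSP6 had 12 and 51 at day 25 and 40 and 21 at day 30. Both lay under the WT values of the same day. SPRY4, SPRY2 and DUSP4 in these libraries overlapped WT.

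Of the gene lists, that of the extracellular matrix held the most genes called lower by count. By share called it was not first, at 15% beside 25.0% of the 8 measured genes in the list of astrocytes and oligodendrocyte precursors. MXRA5, a secreted matrix-remodelling protein, had the largest decrease of all called genes. MXRA5 had values of 324 and 148 at day 25 and 211 and 180 at day 30 in the WT libraries, against 37 and 49 at day 25 and 24 and 20 at day 30 in the OE libraries. No OE library exceeded 49 and no WT library was under 148, a 6.57-fold difference on the log2(value + 1) scale with a log2 difference of -2.72 ± 0.26 (SE, adjusted p = 0.00132). TNC encodes tenascin-C, a matrix glycoprotein of the neural stem cell niche. Its transcript had values of 144 and 78 at day 25 and 102 and 139 at day 30 in the WT libraries, against 12 and 28 at day 25 and 28 and 24 at day 30 in the OE libraries. The OE values reached down to 12, next to the lowest value in the tables, and the difference was -2.31 ± 0.28 (SE, adjusted p = 0.0044).

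Of 60 measured genes in the matrix list of 94, 0 were called higher and 9 lower (15%, beside 0.842% of all genes called). Of the 60, 53 had a negative difference, beside 4725 of 9497 over all genes, and the median of the list was -0.51. At any fold 17 genes fell, and NCAN, a proteoglycan of the brain matrix, was the only one that rose (0.49 ± 0.10 SE, adjusted p = 0.0327). All of the 3 chains of collagen IX fell: COL9A2 by 1.53, COL9A3 by 1.39 and COL9A1 by 1.21 on the log2 scale, with adjusted p of 0.0201, 0.0353 and 0.0476. The metalloproteinase ADAMTS1 fell by 1.42, perlecan (HSPG2), a basement membrane proteoglycan, by 1.23 and fibrillin (FBN1) by 1.15 (adjusted p of 0.0234, 0.0241 and 0.0362). SPARC, the secreted collagen-binding protein, had values of 1468 and 1332 at day 25 and 1260 and 1084 at day 30 in WT and 972 and 767 at day 25 and 722 and 619 at day 30 in OE, and passed at under 2-fold (-0.75 ± 0.10 SE, adjusted p = 0.00826). Fibronectin (FN1), at -0.39 ± 0.16 (SE, adjusted p = 0.206), and the collagens COL2A1 (-0.28 ± 0.40 SE, adjusted p = 0.75) and COL1A2 (-0.46 ± 0.39 SE, adjusted p = 0.555) did not pass.

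The matrix count also rested on single libraries. It was 2 without replicate 2 of the OE libraries of either day or replicate 1 of the WT libraries of day 30, 3 without replicate 2 of the WT libraries of day 30 and 4 without replicate 1 of those of day 25, and 2 (MXRA5 and TNC) with all 12 libraries. The list's median stayed between -0.61 and -0.43 with each library left out. Markers of mesenchyme and neural crest, which also make matrix, had 5 of 22 genes measured, with 0 called and a median of -0.46, and their summed value was 3805 to 10457 in WT and 3696 to 3966 in OE. Markers of astrocytes and oligodendrocyte precursors had 8 of 19 measured, all with a negative difference, a median of -0.49 and summed values of 2738 to 3587 in WT and 1704 to 2270 in OE. Of these 8, SPARCL1 and NFIA were called lower (25.0%, beside 0.842% of all genes). In this list 0 were called with all 12 libraries, without OE replicate 2 of either day or without any 1 of the WT libraries. Their part in the matrix result was not tested. SPARCL1 stands in both the matrix and the astrocyte list.

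**Figure D4:**
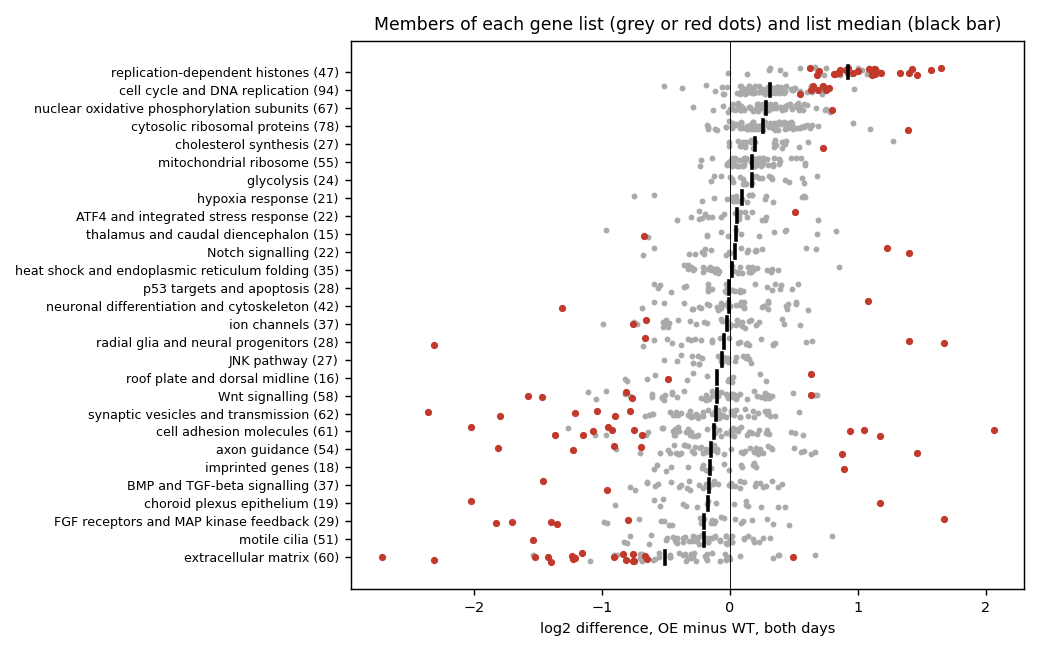
Log2 difference of OE minus WT over both days for the measured members of each gene list with at least 15 of them (number in brackets). Red dots passed an adjusted p under 0.05 at any fold, and black bars are list medians, from 0.92 for replication-dependent histones down to -0.51 for extracellular matrix.

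Cell adhesion genes changed in both directions. PCDH18, a protocadherin of the delta family, had the largest increase of all called genes. PCDH18 had values of 74 and 100 at day 25 and 90 and 80 at day 30 in the WT libraries, against 354 and 281 at day 25 and 506 and 332 at day 30 in the OE libraries. All OE values were at least 2 times any WT value, and the difference was 2.06 ± 0.17 (SE, adjusted p = 0.00095). With all 12 libraries its adjusted p was 0.144. The tight junction claudins moved apart: CLDN1 fell by 2.02 (adjusted p = 0.0158) and CLDN5 rose by 1.17 (adjusted p = 0.0189). CLDN1 had values of 172 and 155 at day 25 and 168 and 146 at day 30 in the WT libraries, against 38 and 32 at day 25 and 82 and 22 at day 30 in the OE libraries. The libraries labelled KO stood on the other side of WT for CLDN1, at 460 and 232 at day 25 and 372 and 438 at day 30. CLDN5 had values of 64 to 98 in WT and 108 to 238 in OE. Of the 61 measured adhesion genes of 77, 3 were called higher and 4 lower (11.5%, beside 0.842% of all genes), with a median of -0.12. CNTN2, also called higher, lies in a run of raised genes on chromosome 1 that is described below. The others called lower were the cadherin CDH18 (-1.36 ± 0.17 SE, adjusted p = 0.0044), PCDH9 (-1.15 ± 0.26 SE, adjusted p = 0.0482) and ALCAM (-1.07 ± 0.15 SE, adjusted p = 0.00969). PCDH9 overlapped, at 450 to 1132 in WT and 209 to 458 in OE, and was called in 2 of the 8 fits with a library left out. The number called was 2 when WT replicate 1 of day 30 was left out, 4 when OE replicate 2 of either day was, and 2 with all 12 libraries.

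Axon guidance genes were likewise divided. EPHA3, an ephrin receptor, rose by 1.46 (adjusted p = 0.0355). It had values of 285 and 398 at day 25 and 240 and 239 at day 30 in the WT libraries, against 619 and 553 at day 25 and 1608 and 678 at day 30 in the OE libraries. One OE library at day 30 was far above the others. The related receptor EPHA7 fell by 1.23 (adjusted p = 0.0412), from 898 to 2094 in WT to 346 to 808 in OE, and the secreted semaphorin SEMA3C fell by 1.81 (adjusted p = 0.0288). Of 54 measured genes of 69, 1 was called higher and 2 lower (5.56%, beside 0.842% of all genes). With all 12 libraries, and without OE replicate 2 of day 30, WT replicate 1 of day 25 or either WT library of day 30, 0 were called. The guidance receptor DCC (0.19 ± 0.16 SE, adjusted p = 0.565) and SEMA6A (-0.28 ± 0.10 SE, adjusted p = 0.177) did not pass.

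Of the synaptic genes, CBLN1 and SYT4 fell most. CBLN1 encodes a secreted organizer of synapses. CBLN1 had values of 924 and 496 at day 25 and 924 and 748 at day 30 in the WT libraries, against 186 and 122 at day 25 and 141 and 140 at day 30 in the OE libraries. The highest OE value was 186 and the lowest WT value 496, and the difference was -2.36 ± 0.20 (SE, adjusted p = 0.00095), or 5.13-fold. SYT4 is a synaptotagmin of dense-core vesicles. SYT4 had values of 1332 and 1879 at day 25 and 2400 and 2094 at day 30 in the WT libraries, against 480 and 640 at day 25 and 532 and 525 at day 30 in the OE libraries. Its difference was -1.80 ± 0.15 (SE, adjusted p = 0.00095), and the OE libraries lay within 480 to 640. The vesicle protein SV2C (-1.21 ± 0.26 SE, adjusted p = 0.0371) and the secreted neuropeptide precursor VGF (-1.04 ± 0.18 SE, adjusted p = 0.0213) were also called lower. CBLN1, SYT4, SV2C and VGF were the 4 called genes of 62 measured in the synaptic list of 85 (6.45%, beside 0.842% of all genes). At any fold 6 genes passed, all lower (9.68%, beside 2.89% of all genes). Of the 62, 43 had a negative difference and 19 a positive one. The list's median was -0.11. The number called was 2 when either WT library of day 30, replicate 1 of the WT libraries of day 25, or replicate 2 of the OE libraries at either day was left out. KCNJ2, an inward rectifier potassium channel, fell by 2.15 (adjusted p = 0.00944), with values of 157 and 81 at day 25 and 118 and 132 at day 30 in WT and 46 and 32 at day 25 and 14 and 22 at day 30 in OE.

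The called genes of the Wnt list were ligands, and both fell. WNT4 had values of 351 to 732 in WT and 98 to 258 in OE (-1.57 ± 0.30 SE, adjusted p = 0.0293), and WNT2B, a ligand of the dorsal midline, had 508 to 1410 in WT and 172 to 318 in OE (-1.47 ± 0.32 SE, adjusted p = 0.0401). Of 58 measured Wnt genes of 80, 0 were called higher and 2 lower (3.45%, beside 0.842% of all genes called and 0.474% called lower), with a median of -0.10, and RSPO1, an agonist of the pathway, rose at under 2-fold (0.63 ± 0.11 SE, adjusted p = 0.0201). The number called in the Wnt list was 0 with all 12 libraries and without OE replicate 2 of day 30, WT replicate 1 of day 25 or either WT library of day 30. It was 1 without either OE library of day 25. Outside the list, APCDD1, which encodes a Wnt antagonist, was also called lower (-1.38 ± 0.24 SE, adjusted p = 0.0202). APCDD1 had 556 to 1042 in WT and 178 to 440 in OE. It was called in 5 of the 8 fits with a library left out and not with all 12 libraries. In the BMP and TGF-beta list, the ligand GDF10 was the 1 called gene of 37 measured (2.70%), with a difference of -1.46 ± 0.28 (SE, adjusted p = 0.0282). Its values overlapped, at 30 to 62 in WT and 11 to 33 in OE. GDF10 missed the threshold with all 12 libraries and without OE replicate 2 of either day, WT replicate 1 of day 25 or either WT library of day 30, and the list then held 0 called genes, against 3 without OE replicate 1 of day 30. RDH10, which makes the retinoic acid precursor retinaldehyde, fell by 1.57 (adjusted p = 0.022), with 76 to 144 in WT and 24 to 52 in OE, while the libraries labelled KO had 257 and 152 at day 25 and 298 and 488 at day 30. PARM1, a mucin-like membrane protein, fell by 1.67 (adjusted p = 0.00146).

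Of the Notch list, the transcription factors HES6 and HES4 rose. HES6 promotes neuronal differentiation in progenitors and opposes HES1. HES6 had values of 89 and 78 at day 25 and 96 and 106 at day 30 in the WT libraries, against 237 and 195 at day 25 and 234 and 324 at day 30 in the OE libraries. The OE libraries started at 195, above the highest WT value of 106, with a difference of 1.40 ± 0.14 (SE, adjusted p = 0.00139). HES4, a second family member, differed by 1.23 ± 0.19 (SE, adjusted p = 0.0142), and these were the 2 called genes of 22 measured in the Notch list of 34 (9.09%, beside 0.842% of all genes), whose median was 0.04. HES1, the third HES gene measured, had a difference of -0.27 ± 0.18 (SE, adjusted p = 0.44). HES6 alone of them was called without WT day 30 replicate 1 and with all 12 libraries. NHLH1, a basic helix-loop-helix factor of newborn neurons, rose by 1.08 (adjusted p = 0.0229), with 38 to 64 in WT and 82 to 168 in OE. ONECUT3, expressed in early-born neurons, fell by 1.31 (adjusted p = 0.0493) and NFIA, a glial fate factor, fell by 1.22 (adjusted p = 0.0298). In the progenitor list, 28 of 36 genes were measured, 2 called higher (FGFR3, HES6) and 1 lower (TNC), or 10.7% beside 0.842% of all genes. The list's median was -0.04, and these 3 were called whichever library was left out. PAX6, the progenitor homeobox gene, fell at under 2-fold (-0.66 ± 0.13 SE, adjusted p = 0.027). Other called increases among the 12 largest were CASZ1, a zinc finger factor (1.54 ± 0.33 SE, adjusted p = 0.0395), and LDB2, a LIM domain binding protein (1.52 ± 0.25 SE, adjusted p = 0.0175).

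No gene of the thalamic identity list was called with all 8 libraries. Over all genes 0.842% were called, so a count of 0 in a list of this size lies near the background. Of 32 listed, 15 were measured, 8 had a positive difference and 7 a negative one, and the median was 0.05. That median had no steady sign, at -0.13 to 0.28 with each library left out, and 1 gene was called lower without OE day 30 replicate 1 and with library weights. TCF7L2, the thalamic marker that the study followed by staining, had values of 224 and 128 at day 25 and 148 and 246 at day 30 in WT and 123 and 465 at day 25 and 272 and 444 at day 30 in OE. The ranges overlapped, and the difference of 0.68 ± 0.37 (SE, adjusted p = 0.356) had a 95% interval of -0.15 to 1.51. In each pair of OE libraries the values of TCF7L2 lay apart, 123 against 465 at day 25, and LHX9, another thalamic neuron factor, did the same, with 148 and 484. ZIC4, a roof-plate and diencephalic factor, was the single gene of the list past the test at any fold (-0.67 ± 0.11 SE, adjusted p = 0.0193). The tubulin TUBB3 (0.11 ± 0.08 SE, adjusted p = 0.523) and the intermediate filament NES (0.13 ± 0.10 SE, adjusted p = 0.501) did not pass. GBX2 and OLIG3, which define the thalamic territory, were not analysed here. The telencephalon list had 5 of 19 genes measured and 0 called, with 4 positive differences and 1 negative. Its median was 0.54, and 0.49 to 0.59 with each library left out. NR2F1 and NR2F2 passed at any fold, both higher (40.0%, beside 2.89% of all genes), while 0 passed with all 12 libraries or without the intensity trend. Without OE replicate 2 of either day, WT replicate 1 of day 25 or either WT library of day 30, 0 passed as well. The list's summed value was 1174 to 1353 in WT and 1578 to 1859 in OE.

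Of 47 measured replication-dependent histone genes, 16 were called higher in OE and 27 passed at any fold, while 0 were called with all 12 libraries. They encode the histones made in S phase, whose messenger RNAs end in a stem-loop and mostly lack a poly(A) tail. The share called was 34.0% of the measured genes, beside 0.842% of all genes, and 0 were called lower. Of the 47, from a list of 62, 46 had a positive difference, beside 4772 of 9497 over all genes. The median log2 difference of the list was 0.92. H2BC15 had values of 40 and 93 at day 25 and 66 and 75 at day 30 in the WT libraries, against 142 and 162 at day 25 and 229 and 354 at day 30 in the OE libraries. H4C14 had values of 52 and 162 at day 25 and 104 and 184 at day 30 in the WT libraries, against 312 and 276 at day 25 and 326 and 458 at day 30 in the OE libraries. For both genes the OE and WT values did not overlap, and the differences were 1.65 ± 0.26 (SE, adjusted p = 0.0161) and 1.57 ± 0.31 (SE, adjusted p = 0.0306). The other histone genes among the 12 largest increases were H4C5 (1.46 ± 0.30 SE, adjusted p = 0.0333), H2BC18 (1.42 ± 0.28 SE, adjusted p = 0.0307) and H2AC7 (1.40 ± 0.31 SE, adjusted p = 0.0423). Histone genes have near-identical copies between which reads can be split, so the value of a single histone gene is uncertain.

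The histone count moved with single libraries. Of the day 25 libraries, it was 31 without WT replicate 2, 6 without WT replicate 1, 10 without OE replicate 1 and 4 without OE replicate 2, and 2 without OE day 30 replicate 2 or without either WT library of day 30. Without the intensity trend it was 5. The median of the list stayed between 0.73 and 1.18 in every fit with a library left out. Libraries of 1 group also differed: relative to the WT mean of the same day, the list's median was -0.52 and 0.52 in the WT libraries at day 25, and 0.86, 0.89, 0.76 and 1.13 in the OE libraries. In the libraries labelled KO it ran from -0.90 to 0.33. TERC, the RNA component of telomerase, which has no long poly(A) tail, was also called higher (1.08 ± 0.22 SE, adjusted p = 0.0341), as was RPS27 (1.39 ± 0.27 SE, adjusted p = 0.0279). RPS27 was the 1 called gene of 78 ribosomal protein genes (1.28%, beside 0.842% of all genes), whose median was 0.26. In the cell cycle and DNA replication list, 86 of 94 measured had a positive difference, and the median was 0.31. Other lists leaned the same way. A positive difference was found in 63 of 67 nuclear oxidative phosphorylation genes, 25 of 27 cholesterol synthesis genes and 70 of the 78 ribosomal protein genes. Over all genes it was found in 4772 of 9497. Of the 94, 0 were called and 7 passed at any fold (7.45%, beside 2.89% of all genes). How transcripts without a tail were captured in each library was not tested.

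Promoters of a few histone genes that rose are shown because part of the family shares a known element. The octamer ATTTGCAT, searched on both strands, is an established element of H2B promoters and of the H2A promoters paired with them. In RefSeq promoters of build GRCh38.p14, which run from 250 bases before to 50 after a start, the octamer stood in 19 of the 23 H2A and H2B genes with a promoter (82.6%), in 1 of 21 H1, H3 and H4 genes (4.76%) and in 156 of 7817 measured genes (2.00%), counting a gene if any of its listed promoters held it. Among histone genes that passed at any fold it stood in 13 of 17 H2A and H2B genes and 0 of 10 H1, H3 and H4 genes, so both kinds of promoter occur among the genes that rose. The stretches of 100 bases given here, 5′ to 3′ on the gene's strand, have the octamer in capitals. They lie at chr6:26251514-26251613 (plus strand), chr6:26199358-26199457 (minus), chr1:149812371-149812470 (minus) and chr6:26204510-26204609 (plus, which holds no match).
H2BC9: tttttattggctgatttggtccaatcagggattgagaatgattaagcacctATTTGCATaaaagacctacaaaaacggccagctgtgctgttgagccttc
H2AC7: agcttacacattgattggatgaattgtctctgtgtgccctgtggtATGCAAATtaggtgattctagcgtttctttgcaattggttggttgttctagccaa
H2BC18: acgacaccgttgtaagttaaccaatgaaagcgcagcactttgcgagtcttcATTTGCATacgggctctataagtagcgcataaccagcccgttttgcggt
H4C5: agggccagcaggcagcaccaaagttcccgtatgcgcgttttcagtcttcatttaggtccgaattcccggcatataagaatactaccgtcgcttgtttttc

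The AP-1 element was searched for in the same promoters as TGANTCA, which is its own reverse complement and includes the consensus with C or G at the free base. It stood in 516 of 7817 genes (6.60%), in 2 of the 31 called higher that have a promoter (NUCKS1 and ZBTB18, 6.45%) and in 3 of the 39 called lower (CLCN5, CDH18 and NEBL, 7.69%). These shares lie near that of all genes, and the window leaves out distal elements. The match upstream of NUCKS1, which encodes a chromatin protein and rose by 1.03 (adjusted p = 0.0044), has T at the free base. It is therefore not the consensus with C or G. This match is shown in capitals within chr1:205750262-205750361 (minus strand, 5′ to 3′).
NUCKS1: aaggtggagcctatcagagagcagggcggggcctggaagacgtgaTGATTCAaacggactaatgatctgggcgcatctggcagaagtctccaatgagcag

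NUCKS1 belongs to a run of neighbouring genes on the long arm of chromosome 1 that were all higher in OE. The 22 consecutive measured genes from ATP2B4 to SLC41A1 (chr1:203626787-205813748, build GRCh38) had log2 differences from 0.39 to 1.78, with a median of 0.75. Among them 12 passed at any fold (54.5%, beside 2.89% of all genes), 16 did not overlap between OE and WT (8.47% of all genes), and 4 were called: SLC45A3 (1.78 ± 0.41 SE, adjusted p = 0.0482), PIK3C2B (1.12 ± 0.12 SE, adjusted p = 0.0024), CNTN2 (1.04 ± 0.17 SE, adjusted p = 0.0174) and NUCKS1. PIK3C2B encodes a class II phosphoinositide 3-kinase. PIK3C2B had values of 181 and 208 at day 25 and 156 and 185 at day 30 in the WT libraries, against 378 and 429 at day 25 and 340 and 439 at day 30 in the OE libraries. CNTN2, a contactin of growing axons, had 789 and 877 at day 25 and 628 and 924 at day 30 in WT. In OE, CNTN2 had 1466 and 1880 at day 25 and 1260 and 2092 at day 30. The study also stained thalamus organoids for CNTN2 and reports that the signal did not differ significantly between WT, knockout and OE. Staining measures protein, whereas the values given here are of RNA, and the relation between them was not tested. NUCKS1 had 1876 and 1464 at day 25 and 1326 and 1326 at day 30 in WT and 2670 and 3449 at day 25 and 2670 and 3449 at day 30 in OE, and as for other high genes these values sit on steps that several libraries share. SLC45A3 was low in all libraries, with 11 to 25 in WT and 34 to 138 in OE. MDM4, a regulator of p53, lies in the run with a difference of 0.45 ± 0.15 (SE, adjusted p = 0.135), and SOX13 with one of 0.98 ± 0.15 (SE, adjusted p = 0.0126).

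The edges of the run were set after its values were seen, so its counts are a description. The 20 genes before it had a median of -0.03 and the 20 after it a median of 0.07. Over 9052 windows of 20 neighbouring genes, the highest median of those touching the run was 0.79 and the highest of the others that held no histone gene was 0.32, while the windows over the histone cluster of chromosome 6 reached 1.05. Relative to WT of the same day, the median over the run was 0.62 and 0.89 in the OE libraries at day 25 and 0.64 and 0.82 at day 30, against -0.14 to 0.14 in the WT libraries. It stayed between 0.66 and 0.80 with each library left out. In the libraries labelled KO, whose labels also name a c-JUN knockout but not its clone, it was 0.60 and 0.45 at day 25 and 0.45 and 0.63 at day 30, and 19 of the 22 genes were above WT. There ATP2B4, ELK4 and CNTN2 were the exceptions, CNTN2 with 877 and 249 at day 25 and 1012 and 504 at day 30. The medians of whole chromosomes (autosomes and X) ran from -0.07 to 0.05. The study reports normal karyotypes for the H1 line and its knockout clones, and gives none for the OE line. DNA copy number over the run was not measured, and its part in these values was not tested.

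**Figure D5:**
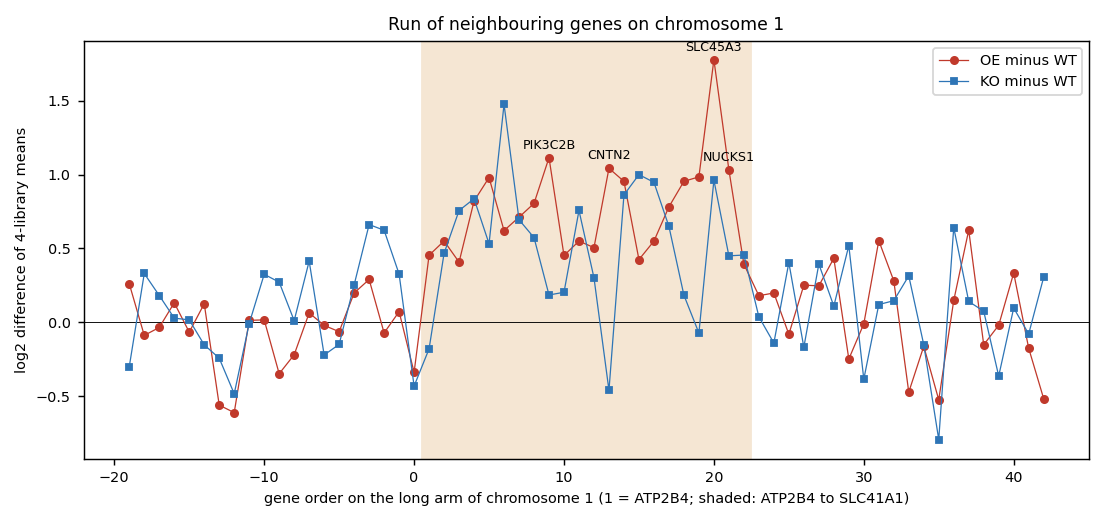
Log2 difference from WT (y axis) of genes in their order along the long arm of chromosome 1 (x axis, gene rank with ATP2B4 as 1), for OE (red circles) and libraries labelled KO (blue squares), each as a difference of 4-library means. The shaded run of 22 genes lies at 0.39 to 1.78 in OE, and the 20 genes on either side have medians of -0.03 and 0.07.

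No gene's change was found to differ between the 2 days. At day 25 alone, 0 genes were called by limma with Benjamini-Hochberg adjustment, though 1064 (11.2%) had an unadjusted p under 0.05, and 65 were called without WT day 25 replicate 2, 1 without OE day 25 replicate 1, and 5 and 6 without OE replicates 1 and 2 of day 30. At day 30 alone, 23 genes were called (0.242%), 9 higher (0.0948%) and 14 lower (0.147%), of which 16 were also called over both days. That count was 0 without either WT library of day 30, 1 and 3 without replicates 1 and 2 of the OE libraries of day 30, and 13 and 9 without replicates 1 and 2 of the WT libraries of day 25. For the difference between the days, 0 genes had an adjusted p under 0.05 and 275 (2.90%) had an unadjusted one. Without WT day 25 replicate 2 it was 2 genes. FGFR3 differed from WT by 1.41 at day 25 and 1.93 at day 30, MXRA5 by -2.34 and -3.10, CBLN1 by -2.16 and -2.56, and SYT4 by -1.51 and -2.08. The widest gap among the 12 largest increases was that of EPHA3, with 0.79 at day 25 and 2.12 at day 30, where 1 OE library was far above the other.

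Beside these values, the libraries labelled KO stood on either side of WT. Of the 35 genes called higher in OE, the KO mean lay below WT for 21 and above it for 14, with a median log2 difference of KO minus WT of -0.19 beside 1.17 for OE minus WT. Of the 45 called lower, the KO mean lay below WT for 26 and above it for 19, with medians of -0.23 and -1.35. All 4 KO values were below all 4 WT values for MXRA5, TNC, SPRY1, CDH18, HSPG2 and ADAMTS1, and all were above for CLDN1, RDH10, ALCAM, PRKCB and CHPF. MXRA5 had 46 and 40 at day 25 and 62 and 52 at day 30 in the libraries labelled KO, of which the values of day 25 lay within the OE range of 20 to 49, and TNC had 32 and 11 at day 25 and 51 and 34 at day 30. CBLN1, by contrast, had 588 and 424 at day 25 and 710 and 522 at day 30 there, within or near its WT range. These comparisons share the WT libraries and no test of them was made.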

How the data were processed

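RNA-seq was performed on 12 thalamus organoid libraries, and the 8 labelled as wild type or as knockout with c-JUN re-expression were compared. The authors deposited 1 table per library with normalized expression scores as whole numbers. The submitters' processing notes name bcl2fastq, Bowtie2 and RSEM without versions and the build hg19, but the deposited positions match GRCh38 (9386 of 9386 symbols found in RefSeq overlap). The normalization is not given in the sources used here. Equal medians and maxima in all libraries keep any global shift from being seen, and high genes sit on shared steps. A methods text describes a total RNA kit with probe-based depletion.

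The log2 of each value plus 1 was fitted in limma 3.58.1 (R 4.3.3, empirical Bayes with an intensity trend) with genotype and day as terms (5 residual degrees of freedom), Benjamini-Hochberg adjusted over 9497 genes. Days were also fitted with 4 group means. Fold changes understate low genes. A filter of a value of at least 1 in 2 libraries removed 0 genes. Calls needed an adjusted p under 0.05 and a 2-fold change. All adjusted p-values are from limma and two-sided. The fit was tested on simulated data. JUN was also tested by exact permutation (scipy).

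Genes named were JUN, TCF7L2, SEMA6A, DCC, TUBB3, NES and CNTN2, the 12 largest called changes in each direction without overlap within a day, up to 5 per direction called on a day, and up to 3 called per direction in each of 38 lists. Others, such as PAX6, SPRY2, IL17RD, NCAN, APCDD1 and genes of the chromosome 1 run, were named after their values were seen. Members and lists were chosen with earlier results of these data known. Alternatives were other pseudocounts, scalings, filters, weights, samples and a replicate block. The ATAC-seq and CUT&Tag samples were not used here.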

Additional observations from a re-analysis of the deposited data

Results flagged for a closer look

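Among 48 named genes, each group of 4 libraries (2 days of 2) was examined for 1 value far from the other 3, in 96 groups, of which chance flags about 1 in 20. In OE, 1 library stood apart for JUN (362), EPHA3 (1608) and FGFR3 (241), with JUN and EPHA3 in the same library, day 30 replicate 1, and for H2BC18 (559) in day 30 replicate 2, which also holds the FGFR3 value. In WT, the day 25 replicate 1 library stood apart for CASZ1 (86), CDH18 (178), WNT2B (1410) and TUBB3 (1604). These groups span both days, so a difference between the days would also be caught.

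The run of 22 genes on chromosome 1 was raised in the libraries labelled KO, which the comparison does not use, with a median log2 difference from WT of 0.553. The difference was not tested.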

How the results depend on the processing

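All 80 genes called over both days kept their direction in every refit of 18 that held them. The number called over both days was 80 under pseudocount 0.1, quantile normalization and median centring, 74 with pseudocount 5, 68 with a mean value of at least 50 and 68 as the mean of the 2 days' contrasts. It was 15 with all 12 libraries, 129 with library weights, 40 without the intensity trend, 274 at any fold and 20 at an adjusted p under 0.01, and 17 to 132 with 1 library left out. The cause was not tested.

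The count at day 25 was 0 to 65 and at day 30 was 0 to 18 with 1 library left out, and that of the difference between days 0 to 2. At day 30 it was also 3 with all 12 libraries and 0 without the intensity trend. The permutation p of JUN was 0.0571 without any 1 library and 0.333 within a day, the smallest these sizes allow. Of 37 lists with a measured gene, 16 held a called gene and 25 held 1 at any fold. Of 858 refits of 48 named genes, 648 kept their side of the threshold, 210 no longer passed and 0 reversed.

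With a replicate block the count was 111 over both days, 38 at day 25 and 37 at day 30. The numbers were not treated as pairs, since the correlation of same-numbered deviations was 0.0927 at day 25 and 0.262 at day 30. Depth is unknown, so no limit by depth was set.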
